A study of Mus musculus with 28 samples.

Results

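A set of 42 listed interferon-stimulated genes was followed through culture, transfer and recall of TRP1-specific CD4+ T cells, and 38 of the 42 were measured, out of 19938 genes on the arrays with a probe set of their own. Each gene was read from a probe set annotated to that gene alone. Where a gene had several such probe sets, as 3 of the 38 did, that with the highest mean over the 28 arrays was taken. Isg15, Gbp2 and Igtp lie only on probe sets annotated to several genes, and they and Ifi44 were not analysed here. By role the measured genes comprise 4 nucleic acid sensors, 4 transcription factors, 20 antiviral effectors, 5 enzymes of ubiquitin-like and ADP-ribose modification, 2 GTPases and 3 proteins of antigen presentation.

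The cells came from BwTRP1 Rag1-/- mice, whose CD4+ T cells recognise a peptide of TRP1, a protein of pigment cells, and were cultured for 7 days with peptide and irradiated splenocytes. Th1 cultures received IL-12 (3.33 ng/ml) and an antibody against IL-4 (10 µg/ml). Th17 cultures received IL-1, IL-6, IL-21, TGFβ2 (5 ng/ml) and antibodies against IL-2, IL-4 and IFN-γ (each at 10 µg/ml), and later also IL-23, so that IFN-γ was neutralised in the Th17 cultures alone. Both received medium with IL-2 from the middle of the culture. The cells, which carried Thy1.2, were either analysed at once (day 0) or given to B6.PL hosts, which carry Thy1.1 and had been irradiated with 5 Gy, a sublethal dose that leaves hosts with cells of their own. On day 5 or day 15 they were recovered from spleen and inguinal lymph nodes by CD4 enrichment and a sort for Thy1.2, and every sample was split so that a part could be restimulated through CD3 and CD28 antibodies for 2 h. Day 0 has 1 array for each culture and state. Day 5 has 3 arrays for each polarization and state. Day 15 has 2 arrays for each Th1 state and 4 for each Th17 state. Whether replicates are from different mice, and how many mice gave a sample, is not stated in the labels, and the p-values therefore reflect just the spread among these samples, which may be technical.

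Interferons are secreted alarm signals. Type I interferons, the interferon-α family and interferon-β, bind a receptor made of Ifnar1 and Ifnar2, whose kinases Jak1 and Tyk2 lead to a complex holding Stat2 and Irf9 that binds the interferon-stimulated response element (ISRE). Interferon-γ, the hallmark cytokine of Th1 cells, binds Ifngr1 and Ifngr2 and acts at the γ-activated site (GAS), partly by way of the transcription factor Irf1. The genes they switch on sense viral RNA and DNA, block viral entry, translation and replication, tag or untag proteins with the ubiquitin-like Isg15, and raise antigen processing. Many of these genes keep a low tonic activity in T cells without infection.

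Expression is given as log2 signal, on which a difference of 1 is a 2-fold change. Mean signal of 8 T cell markers was between 12.08 and 12.51 on every array. Mean signal of 14 granulocyte and macrophage markers was 9.26 in the unstimulated Th17 culture and 7.18 in the Th1 culture. After transfer it lay between 6.45 and 6.95 in Th1 samples and between 6.55 and 8.95 in Th17 samples, with 8.95 in day 5 Th17 sample 1 and 8.32 in its restimulated part. Both measured erythroid markers, Alas2 and Slc4a1, had a mean between 6.60 and 6.84 on day 5 and between 8.32 and 9.92 on day 15, without overlap. Mean signal of 6 NK markers lay between 6.61 and 7.17 in day 15 Th1 samples and at 6.18 or lower in all other samples after transfer.

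Promoter sequence shows which members carry the motifs that the interferon-activated factors read. RefSeq promoters (build GRCm38.p6), searched over the 250 bases before the start site, were matched for 29 of the 38 measured genes. The ISRE core, GAAANNGAAA on either strand (TTTCNNTTTC on the other), was in 10 of the 29, or 34.5%, against 3.46% of all 27025 genes with a promoter. These were Bst2, Gbp3, Ifit1, Ifit3, Ifitm2, Irgm1, Oas3, Rsad2, Stat2 and Trim30a. The GAS core TTCNNNGAA, which reads the same on both strands, was in 6 of the 29, or 20.7%, against 8.13% of all genes with a promoter: in Bst2, Eif2ak2, Ifit2, Irf1, Isg20 and Psmb8. Both cores were in Bst2, and in 14 of the 29 the letters of neither were found. A match is a stretch of letters and not a measured binding site.

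Stretches of 7 of these promoters are shown 5′ to 3′ on the strand of the gene, with the core in capitals, because the genes recur in the results below. Ifit1 (chr19:34640774-34640823, plus strand) and Ifit3 (chr19:34583369-34583423, plus strand) each hold 2 separate ISRE cores, and Rsad2 (chr12:26456548-26456587, minus strand) holds 1. In Gbp3 (chr3:142559984-142560023, plus strand) and Irgm1 (chr11:48871426-48871465, minus strand) 2 ISRE cores overlap each other, and the capitals cover both. Irf1 (chr11:53769909-53769948, plus strand) and Psmb8 (chr17:34198085-34198124, plus strand) hold a GAS core.
Ifit1: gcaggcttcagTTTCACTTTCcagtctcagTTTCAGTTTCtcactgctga
Ifit3: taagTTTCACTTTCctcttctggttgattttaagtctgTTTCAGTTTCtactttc
Rsad2: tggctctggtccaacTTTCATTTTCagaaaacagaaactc
Gbp3: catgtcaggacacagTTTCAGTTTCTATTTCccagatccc
Irgm1: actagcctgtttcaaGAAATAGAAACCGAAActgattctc
Irf1: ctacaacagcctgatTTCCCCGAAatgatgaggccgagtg
Psmb8: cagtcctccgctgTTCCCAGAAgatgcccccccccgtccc

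Among the genes with a window, 5 of the 10 with an ISRE core (Gbp3, Ifit1, Ifit3, Oas3 and Rsad2) were at least 2-fold lower in the Th17 culture than in the Th1 culture. So were 3 of the 6 with a GAS core (Ifit2, Irf1 and Isg20) and 3 of the 14 with neither (Irf7, Samd9l and Xaf1). The median log2 difference was -1.02, -0.73 and -0.57 in these groups. Over all genes 1.81% were at least 2-fold lower in the Th17 culture, and the share among all genes with a core was not computed. Bst2 counts in both core groups. With 1 array per culture, and members chosen with earlier results of these data known, these shares are a description and no test of the motifs.

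**Figure D1:**
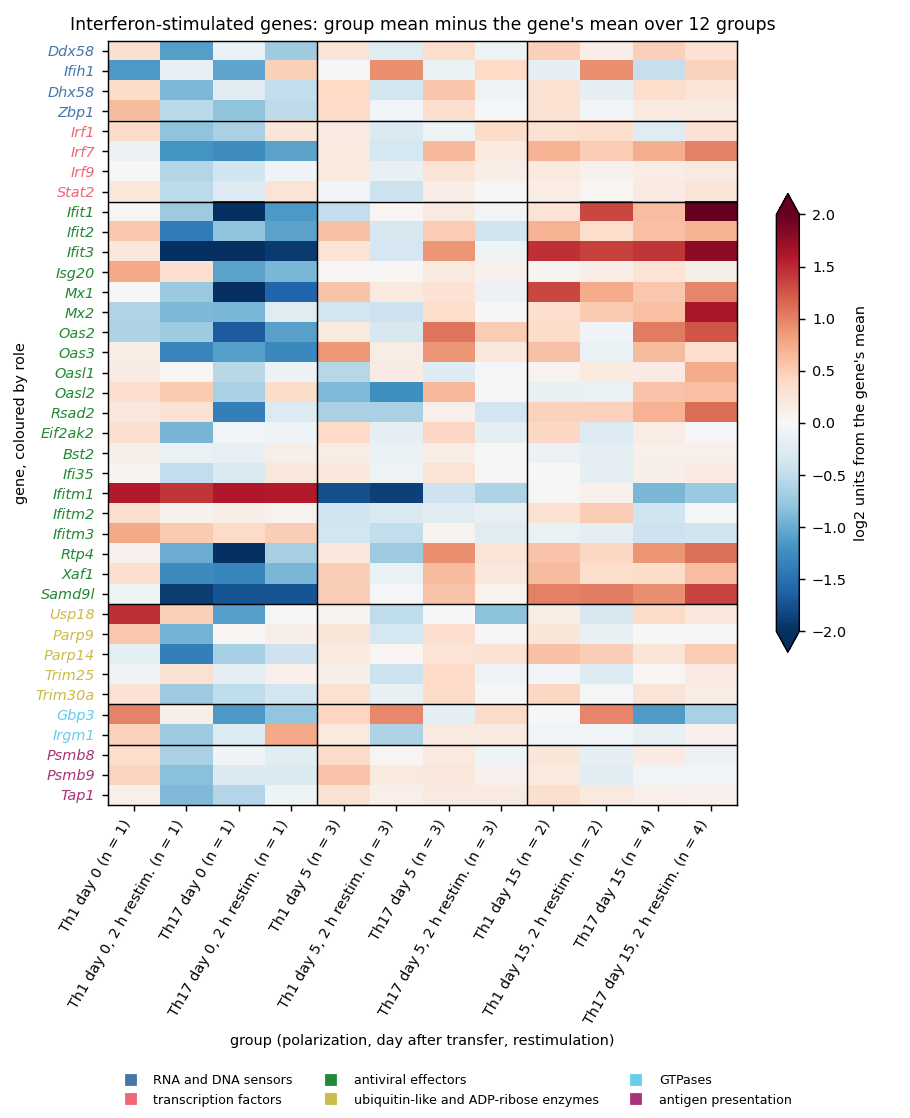
Mean log2 signal of each of the 38 measured interferon-stimulated genes (rows, coloured by role) in the 12 groups (columns), minus the gene's mean over the 12 groups, on a scale limited to 2 log2 units either way. The unstimulated Th17 culture holds the lowest group mean of 13 and the restimulated Th1 culture that of 17 of the 38 genes, and restimulated day 15 Th17 cells hold the highest of 9. The culture groups are single arrays, and the matching counts over all genes were not computed.

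Over the 28 arrays the members moved through a wide range, and its low end lay in culture for most of them. The lowest group mean of a gene was in the restimulated Th1 culture for 17 of the 38 genes and in the unstimulated Th17 culture for 13. The highest was in restimulated day 15 Th17 cells for 9 genes, and in unstimulated day 15 Th1 cells, the unstimulated Th1 culture and unstimulated day 5 Th17 cells for 7 each. The culture groups are single arrays, which vary more than means of several arrays. The matching counts over all genes were not computed. Ifit1, which encodes a protein that binds viral RNA, ran from 7.04 in the Th17 culture to 11.68 in restimulated day 15 Th17 sample 1. The SD of a gene within a group, taken as its median over the 8 groups with replicates, was between 0.063 and 0.297 over the 38 genes. Single groups spread more: the 2 restimulated day 15 Th1 samples had an SD of 0.942 for Ifih1, 0.92 for Oas3 and 0.806 for Ifit3. The mean of the 38 genes on an array, which can be compared between arrays, was 10.17 in the Th1 culture and 9.16 in the Th17 culture. It was 9.91 to 10.05 in unstimulated day 5 Th1 cells, 10.09 to 10.30 in day 5 Th17 cells, 10.21 to 10.27 in day 15 Th1 cells and 9.93 to 10.34 in day 15 Th17 cells.

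In culture without restimulation most interferon-stimulated genes were lower in Th17 than in Th1 cells. Of the 38 genes, 36 had a lower signal in the unstimulated Th17 culture, 16 of them by at least 2-fold and none higher by as much. Over all genes 1.81% were at least 2-fold lower and 2.73% at least 2-fold higher. The median difference was -0.73 over the members and 0.00 over all genes. Day 0 has no replicates, so no test was made and the differences carry no error. In these mixed cultures and sorts, fewer cells of a type and less RNA per cell cannot be told apart.

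The antiviral effectors led the list, with 11 of 20 at least 2-fold lower. Ifit3, a partner of Ifit1 in binding viral RNA, read 5.09 in the Th17 culture and 8.19 in the Th1 culture, 8.54-fold lower. Ifit1 read 7.04 and 9.22, and Ifit2, a related protein, differed by -1.34. Mx1, a dynamin-like GTPase that traps viral nucleocapsids, read 5.58 and 7.78, and Rtp4, an interferon-induced chaperone-like protein, 6.70 and 8.88. These are differences of more than 4-fold for Ifit1, Ifit3, Mx1 and Rtp4. The other antiviral genes past 2-fold were Isg20 (-1.83), Xaf1 (-1.63), Samd9l (-1.63), Rsad2 (-1.58), Oas3 (-1.24) and Oas2 (-1.05), given as log2 differences. Isg20 is a nuclease of viral RNA, Rsad2 (viperin) makes a chain-terminating nucleotide, and Oas2 and Oas3 make the short oligoadenylates that activate RNase L.

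Outside the effectors, Usp18, which strips Isg15 from proteins and restrains the type I receptor, read 9.51 in the Th17 and 12.06 in the Th1 culture, 5.87-fold lower. Gbp3, a guanylate-binding protein induced above all by interferon-γ, read 8.63 and 10.79, 4.45-fold lower. Of the sensors only Zbp1, which binds Z-form nucleic acid, passed 2-fold (-1.45), while the RIG-I gene Ddx58 was at -0.45 and the MDA5 gene Ifih1 at 0.10. Among the transcription factors Irf7, which amplifies interferon-α production, was lower by 2.22-fold and Irf1 by 2.04-fold. Irf9 and Stat2, parts of the ISRE-binding complex, differed by -0.41 and -0.48. The antigen presentation genes differed less: Psmb8 and Psmb9, subunits of the immunoproteasome, by -0.42 and -0.73, and the peptide transporter Tap1 by -0.69.

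The membrane proteins that block virus entry differed little. Ifitm1 read 12.91 in the Th17 culture and 12.89 in the Th1 culture, and Ifitm2 and Ifitm3 differed by -0.22 and -0.37. Bst2 (tetherin), which holds budding virus to the cell, differed by -0.28. Along with the members, the myeloid marker mean was 9.26 in the Th17 and 7.18 in the Th1 culture and the mean of 9 dendritic markers 8.39 and 7.97. Of the myeloid markers Ly6g (8.08 against 9.85) was lower in the Th17 culture, as were Flt3 (6.98 against 7.42) and Clec9a (4.15 against 4.53) of the dendritic ones. Lower in the Th17 culture were the mean of 5 plasmacytoid markers, which include the member Bst2 (7.42 against 8.06), of 2 CD8 markers (7.35 against 8.22) and of 6 NK markers (6.15 against 6.47). The largest gap among the plasmacytoid markers was that of Ccr9 (5.56 against 9.29), while Tcf4 went the other way (9.73 against 8.84). Among the NK markers it was that of Gzma (9.47 against 12.68), while Klri2 (6.66 against 5.18) and Klre1 (4.36 against 3.75) went the other way. The part of these cells in the member values was not tested.

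With restimulation the member means of the cultures lay closer together and in the opposite order, 9.56 in Th17 and 9.34 in Th1. Each of these states is 1 array. In the Th1 culture 34 of 38 members were lower after 2 h, 17 of them by at least 2-fold and none higher by as much, against 5.72% and 3.69% of all genes. The median member change was -0.98, and Ifit3 went from 8.19 to 5.74. In the Th17 culture 29 of 38 were higher, 6 by at least 2-fold and none lower by as much, against 1.8% and 0.757% of all genes. These 6 were Ifih1 (1.52), Rtp4 (1.42), Usp18 (1.09), Rsad2 (1.08), Irgm1 (1.03) and Oasl2 (1.01), and Irgm1 is a GTPase that acts on membranes around intracellular microbes. After restimulation 26 of 38 members read higher in Th17 than in Th1 culture, with a median difference of 0.32 against -0.09 over all genes. Of the members 3 were at least 2-fold higher in Th17 culture and 1 was lower, against 3.32% and 1.13% of all genes. They were Irgm1 (1.48), Parp9 (1.07) and Irf1 (1.04) and, lower, Isg20 (-1.26).

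**Figure D2:**
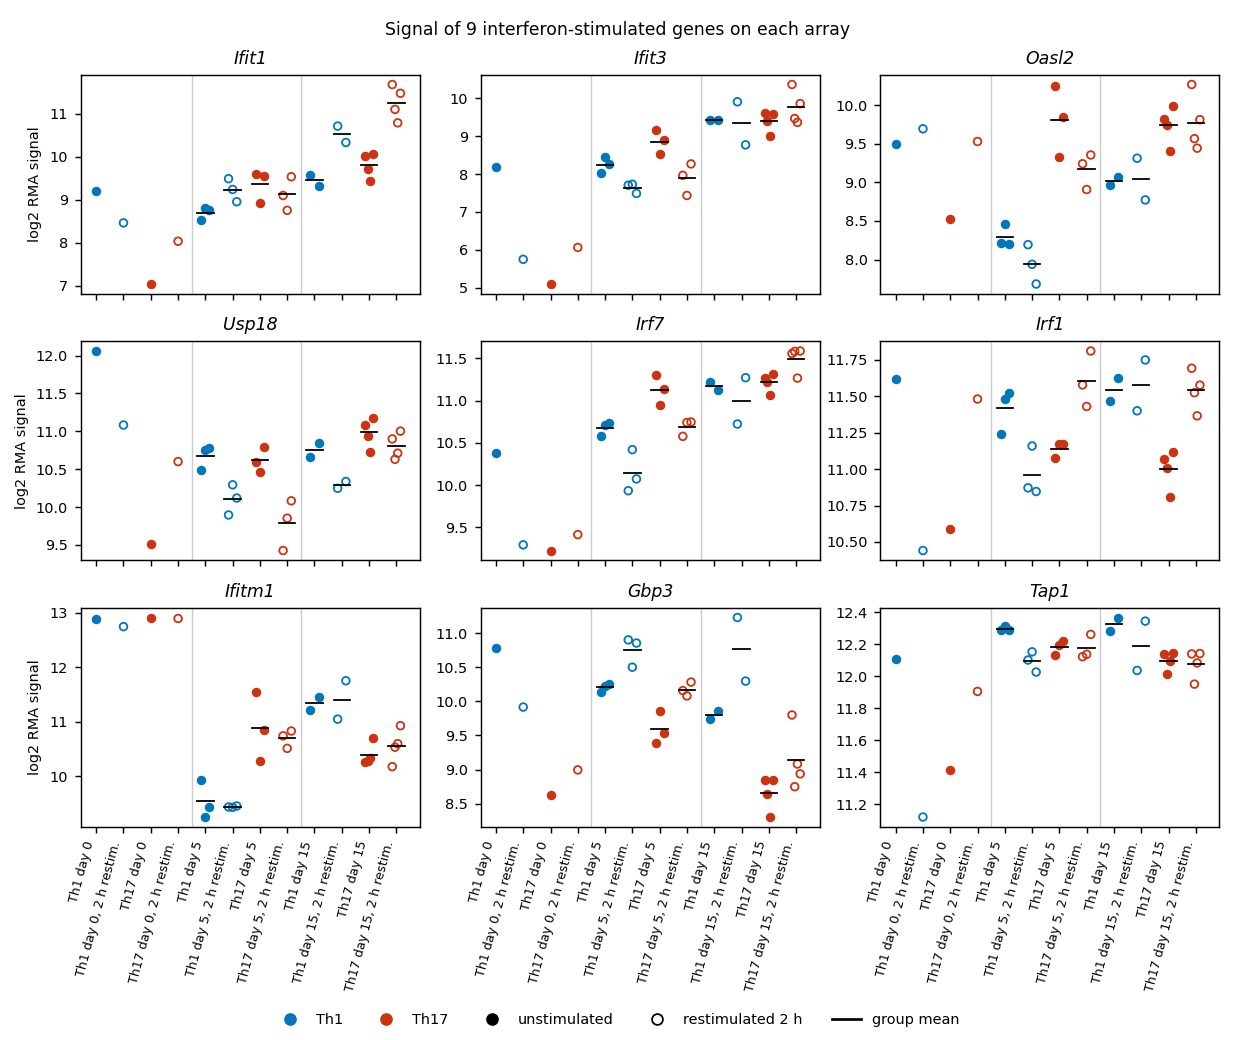
Log2 signal of 9 members on each of the 28 arrays (points), by group, with the group mean as a line where a group has over 1 array; Th1 in blue, Th17 in red, restimulated arrays as open circles, and a separate vertical scale in each panel that does not start at 0. Ifit3 reads 5.09 in the Th17 culture and 8.52 to 9.16 on day 5, and Ifitm1 reads 12.91 and then 10.28 to 11.54.

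After 5 days in the host most members read higher than in the Th17 culture. Of the 38 members, 35 had a higher mean in unstimulated day 5 Th17 cells than in the Th17 culture, 16 by at least 2-fold, and 1 was lower by as much, against 2.13% and 5.01% of all genes. The median change was 0.90 over the members and 0.02 over all genes. In Th1 cells 22 members were higher and 16 lower, with 1 at least 2-fold higher and 4 at least 2-fold lower, against 1.19% and 3.92% of all genes. The day 0 side of each comparison is 1 array, and culture and host differ in far more than time, so no test was made. Centring each array on its median moved the median change of all genes in Th17 cells from 0.018 to 0.204, and 20 members were then at least 2-fold higher and 1 lower. Between the Th17 culture and unstimulated day 5 Th17 samples the dendritic marker mean went from 8.39 to between 6.92 and 7.06 and the myeloid marker mean from 9.26 to between 7.49 and 8.95. In Th1 cells the dendritic marker mean went from 7.97 to between 6.84 and 6.98, the plasmacytoid one from 8.06 to between 7.17 and 7.20 and the CD8 one from 8.22 to between 7.64 and 7.88. Single markers went the other way there, such as the dendritic marker Itgax, from 6.74 to between 8.54 and 8.80. The plasmacytoid marker Siglech went from 5.93 to between 6.10 and 6.15. The part of these markers in the member changes was not tested.

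Ifit3 went from 5.09 in the Th17 culture to 9.16, 8.52 and 8.90 in the 3 day 5 samples. All 3 were above every day 0 array. Rtp4 went from 6.70 to 10.06, 9.38 and 9.72, and Oas2 from 6.86 to 9.66, 9.51 and 9.63. The next largest changes were Mx1 (2.49), Ifit1 (2.32) and Samd9l (2.30). Samd9l encodes an antiviral protein that also restrains cell growth. In Th1 cells Ifit3 read 8.19 in culture and 8.02, 8.45 and 8.27 on day 5, while Usp18 was 2.62-fold lower and Oasl2, an oligoadenylate synthetase-like protein, 2.31-fold lower than in culture. Ifih1 was the member higher by at least 2-fold in Th1 cells (1.10).

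Ifitm1 was lower on day 5 than in culture in both lineages. It read 12.91 in the Th17 culture and 11.54, 10.28 and 10.85 on day 5, and 12.89 in the Th1 culture and 9.93, 9.25 and 9.44 on day 5. All 6 day 5 values lay below both culture values. Ifitm3 was also lower on day 5 in Th1 cells (-1.12) and less so in Th17 cells (-0.31). Restimulated cells on day 5 against restimulated cultures had 8 members at least 2-fold higher and 3 lower in Th1 cells, and 9 higher and 1 lower in Th17 cells, against 3.17%, 4.63%, 2.39% and 5.88% of all genes.

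**Figure D3:**
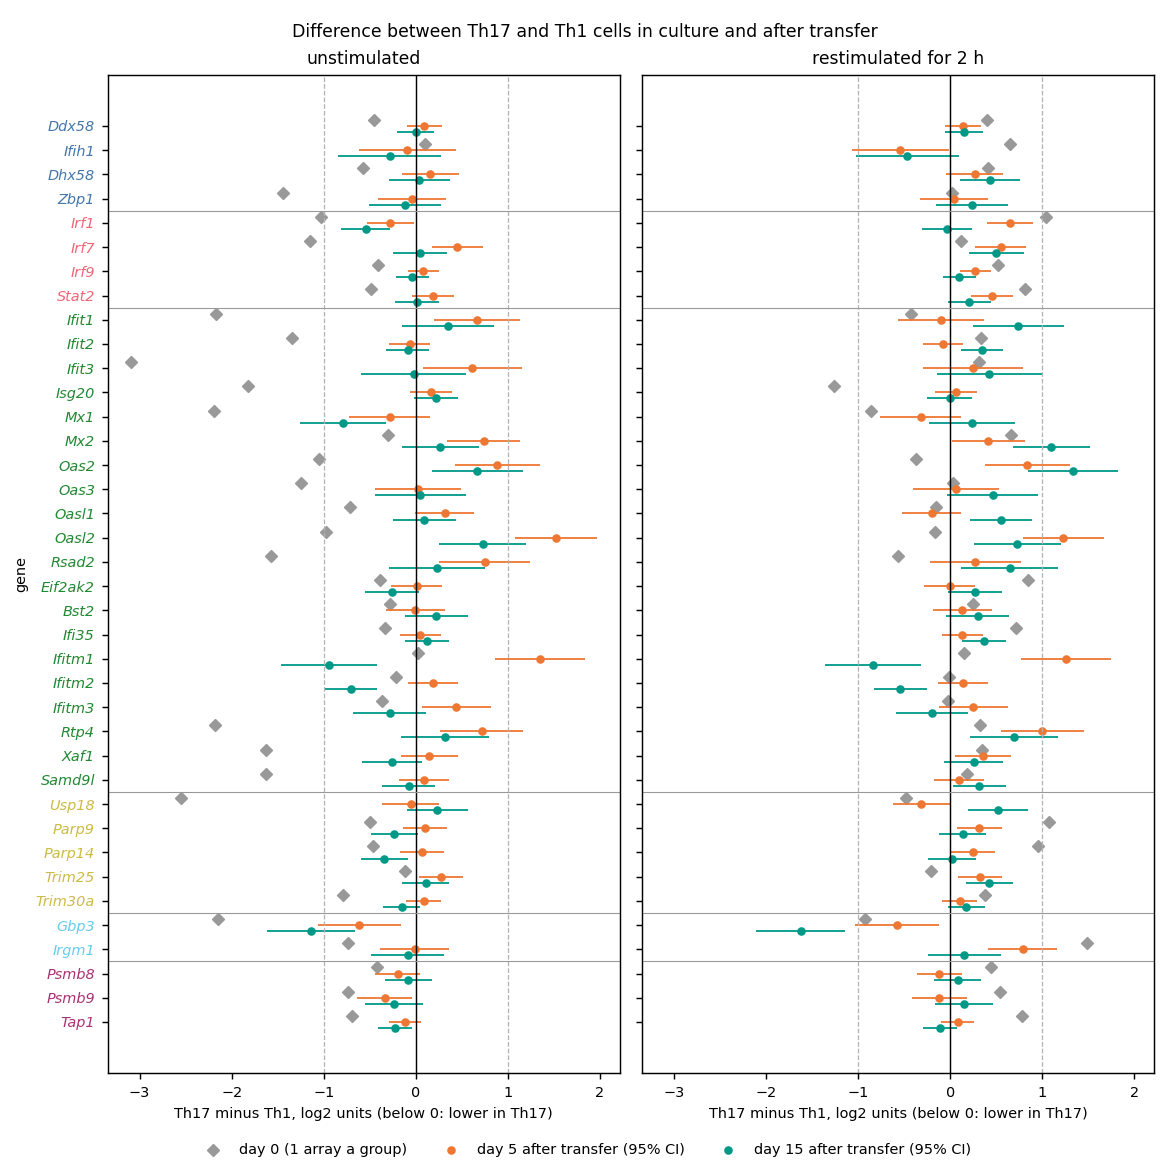
Th17 minus Th1 difference in log2 signal for each member, unstimulated (left) and restimulated for 2 h (right); grey diamonds are day 0 (1 array a group, no error), orange and green points are day 5 and day 15 after transfer with 95% confidence intervals from limma, and dashed lines mark a 2-fold difference. At day 0 without stimulation 16 members lie to the left of the lower dashed line; on day 5 and day 15 most members lie near 0, Ifitm1 is to the right on day 5 and to the left on day 15, and Gbp3 is to the left on day 15.

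On day 5 the few members that passed the test were higher in Th17 cells. Without restimulation 4 of 38 members were higher in Th17 cells at an adjusted p under 0.05 by limma and none was lower, against 2.31% and 1.32% of all genes. All 4 are antiviral effectors: Oasl2, Ifitm1, Oas2 and Mx2, a relative of Mx1. The median difference was 0.09 over the members and -0.04 over all genes. Of the 16 genes that were at least 2-fold lower in the Th17 culture, 1 was higher on day 5 and none was lower, and their median difference was 0.12.

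Oasl2 read 10.25, 9.34 and 9.85 in the 3 Th17 samples and 8.21, 8.46 and 8.20 in the 3 Th1 samples. Every Th17 value was above every Th1 value, a difference of 1.52 ± 0.21 (SE; adjusted p = 5.68e-05), or 2.87-fold. Ifitm1 read 11.54, 10.28 and 10.85 in Th17 and 9.93, 9.25 and 9.44 in Th1 samples, again apart, with a difference of 1.35 ± 0.24 (SE; adjusted p = 0.000808). The Th17 value nearest to the Th1 samples was that of sample 2. Oas2 read 9.66, 9.51 and 9.63 against 8.55, 8.88 and 8.73, a difference of 0.88 ± 0.22 (SE; adjusted p = 0.0241). Mx2 read 5.95, 6.05 and 6.36 against 5.48, 5.30 and 5.35, a difference of 0.74 ± 0.19 (SE; adjusted p = 0.0282). For both genes the groups did not overlap.

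The members of the panel that did not pass had differences of either sign. They were Irf7 (0.45), Rsad2 (0.75), Ifit1 (0.67), Ifit3 (0.61) and Ifitm3 (0.44) above 0, with adjusted p from 0.0692 to 0.282, and Gbp3 (-0.61), Psmb9 (-0.34) and Irf1 (-0.28) below 0. Zbp1, Ddx58 and Bst2 differed by -0.04, 0.09 and -0.01. Beside these genes, the mean of the granulocyte and macrophage markers was 8.95, 7.49 and 7.66 for Th17 against 6.64 to 6.95 for Th1 samples. The plasmacytoid marker mean was 7.37 to 7.88 for Th17 against 7.17 to 7.20 for Th1 samples, and its part was not tested. Among these markers Ccr9 (9.12, 7.24 and 7.34 against 6.49, 6.71 and 6.46) and Tcf4 were higher in every Th17 sample. Siglech (6.06, 6.11 and 5.89 against 6.15, 6.10 and 6.13), Pacsin1 and the member Bst2 overlapped between the groups. Of the 4 calls, that of Oasl2 held with the mean of the granulocyte and macrophage markers as a covariate. Leaving out Th1 sample 1, Th1 sample 3 or Th17 sample 3 left 2 calls, and leaving out Th17 sample 2 gave 8.

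With restimulation 8 members were higher in Th17 cells on day 5 and none was lower, against 2.95% and 1.02% of all genes. Ifitm1 read 10.74, 10.51 and 10.83 in Th17 and 9.44, 9.43 and 9.45 in Th1 samples. Oasl2 read 9.24, 8.91 and 9.36 against 8.19, 7.94 and 7.68, and Rtp4 9.12, 8.70 and 9.37 against 7.81, 8.34 and 8.06. None of these 3 overlapped between the groups, and the differences were 1.25 ± 0.24 (SE; adjusted p = 0.00171), 1.23 ± 0.21 (SE; adjusted p = 0.000731) and 1.00 ± 0.22 (SE; adjusted p = 0.00655). The median difference was 0.14 over the members and 0.00 over all genes. The other 5 were 3 transcription factors, Irf1, Irf7 and Stat2, with the GTPase Irgm1 and Oas2, whose groups overlapped.

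Irf1, which relays the interferon-γ signal, read 11.58, 11.43 and 11.81 in restimulated Th17 and 10.87, 11.16 and 10.85 in restimulated Th1 samples, a difference of 0.65 ± 0.12 (SE; adjusted p = 0.00158). Irgm1 read 11.38, 11.14 and 11.47 against 10.39, 10.73 and 10.51, a difference of 0.79 ± 0.18 (SE; adjusted p = 0.0102). Both sets of samples were apart. Leaving out Th1 sample 1 or Th17 sample 3 left 3 calls and leaving out Th1 sample 3 left 5. A covariate for the myeloid markers, whose mean was 6.90 to 8.32 for Th17 against 6.47 to 6.57 for Th1 samples, left 2 calls. The plasmacytoid marker mean was 7.33 to 7.48 against 7.07 to 7.17, and its part was not tested. Again Ccr9 and Tcf4 were higher in every Th17 sample, while Siglech, Pacsin1 and Bst2 overlapped between the groups. Whether polarization changes the response to restimulation on day 5 was tested by the difference of the differences, and no member passed by limma, against 0.0201% of all genes. At an unadjusted p under 0.05 there were 4 members, and the share of all genes at that threshold is not given here. The parts of a sample are paired in this test. With the replicate number as a block 1 member passed, as it did without restimulated Th1 sample 2 or restimulated Th17 sample 2.

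On day 15 without restimulation 5 of 38 members were lower in Th17 cells and none was higher, against 2.28% and 1.88% of all genes. The median difference was -0.06 over the members and 0.02 over all genes, and of the 16 genes that had been at least 2-fold lower in the Th17 culture 3 were lower and none higher. Gbp3 read 8.85, 8.65, 8.30 and 8.84 in the 4 Th17 samples and 9.74 and 9.85 in the 2 Th1 samples. The groups did not overlap, and the difference was -1.14 ± 0.23 (SE; adjusted p = 0.00408). Ifitm1 read 10.25, 10.28, 10.34 and 10.69 against 11.22 and 11.45, a difference of -0.94 ± 0.25 (SE; adjusted p = 0.0305). Ifitm2 read 11.52, 11.40, 11.41 and 11.88 against 12.14 and 12.37, a difference of -0.71 ± 0.14 (SE; adjusted p = 0.00272). Both were apart, in the order opposite to that of Ifitm1 on day 5.

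Mx1 (-0.79, adjusted p = 0.0453) and Irf1 (-0.55, adjusted p = 0.0135) were also lower. Psmb8, Psmb9 and Tap1 differed by -0.08, -0.24 and -0.23 and did not pass, nor did Oasl2 (0.73), Ifit1 (0.35), Rsad2 (0.23) and Usp18 (0.23). The call count rested on the 2 Th1 samples: it was 2 without Th1 sample 1 and 0 without Th1 sample 2, and 3 without Th17 sample 2. Beside these genes, the NK marker mean was 6.99 and 7.17 in Th1 samples against 5.70 to 5.89 in Th17 samples and the dendritic marker mean 7.18 to 7.26 against 6.86 to 6.92, and their part in the member values was not tested. The erythroid marker mean was 9.92 and 9.42 for Th1 against 8.56 to 9.52 for Th17, and 3 calls were made with it as a covariate.

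With restimulation on day 15 the differences went both ways, 5 members higher and 3 lower in Th17 cells, against 3.45% and 2.98% of all genes. Oas2 read 9.41, 9.80, 9.84 and 10.09 in Th17 and 7.98 and 8.93 in Th1 samples, and Mx2 read 7.28, 7.43, 7.13 and 7.75 against 5.89 and 6.71. Gbp3 read 9.80, 8.75, 9.08 and 8.94 against 11.23 and 10.30. None of the 3 overlapped, and the differences were 1.33 ± 0.24 (SE; adjusted p = 0.000836), 1.10 ± 0.20 (SE; adjusted p = 0.0012) and -1.62 ± 0.23 (SE; adjusted p = 7.53e-05). Also higher were Oasl1 (0.55), Irf7 (0.50) and Trim25 (0.43), and also lower Ifitm1 (-0.84) and Ifitm2 (-0.54). Trim25 is a ubiquitin ligase that activates RIG-I, and the Irf7 values of the groups overlapped. The median difference was 0.25 over the members and -0.03 over all genes. Of the 16 genes low in the Th17 culture 2 were higher and 1 was lower.

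The 2 restimulated Th1 samples of day 15 differed from each other. Oas3 read 9.52 and 10.82, Zbp1 10.39 and 11.35 and Ifih1 11.93 and 10.59 in them. Without Th1 sample 1 the count of calls between the polarizations was 2, without Th1 sample 2 it was 13, and without Th17 sample 1 or 4 it was 5. In a fit limited to these groups it was 3. By limma no member passed the test of polarization by restimulation on day 15, against 0% of all genes. At an unadjusted p under 0.05 there were 9 members, and the share of all genes at that threshold is not given here. The NK marker mean was 6.61 and 6.75 in these Th1 samples against 5.62 to 5.78 in restimulated Th17 samples.

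The polarization difference of Ifitm1 changed between the days. Its difference between Th17 and Th1 cells moved by -2.29 ± 0.34 (SE) from day 5 to day 15 without restimulation (adjusted p = 0.00126) and by -2.09 ± 0.34 (SE) with it (adjusted p = 0.00299). Ifitm2 moved by -0.90 ± 0.19 (SE) without restimulation (adjusted p = 0.0176). No other member passed, against 0.562% lower and 0.577% higher of all genes without restimulation and 0.512% and 0.431% with it. Both calls of Ifitm1 held in all alternatives tried, with adjusted p of at most 0.0234 and 0.0481, while that of Ifitm2 was lost without Th1 day 5 sample 1, Th17 day 5 sample 3 or Th1 day 15 sample 2. With restimulation between 1 and 4 members passed when 1 sample was left out: 4 without restimulated day 15 Th1 sample 2 or Th17 sample 1, 3 without day 5 Th17 sample 2, and 2 without day 5 Th17 sample 3 or day 15 Th1 sample 1. The NK marker mean moved between the days in Th1 samples, from between 5.88 and 6.18 to between 6.99 and 7.17 without restimulation and from between 5.76 and 6.03 to between 6.61 and 6.75 with it, and its part was not tested.

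Between day 5 and day 15 several antiviral genes were called higher in unstimulated Th1 cells, and no member was called higher in unstimulated Th17 cells. In unstimulated Th1 cells 11 members were higher on day 15 and none lower, against 7.33% and 8.72% of all genes, and 10 of the 11 are antiviral effectors. In unstimulated Th17 cells none was called higher and 2 were called lower, Gbp3 and Trim25, against 4.37% and 5.28%. In restimulated cells 16 members were higher and none lower in Th1 (7.07% and 8.64% of all genes), and 14 higher and 1 lower in Th17 (5.05% and 8.42%). Of these, 10 were higher in both, 62.5% of the Th1 and 71.4% of the Th17 calls, and the matching overlap over all genes was not computed. The 10 are Ddx58, Ifit1, Ifit2, Ifit3, Irf7, Mx2, Oasl2, Rsad2, Rtp4 and Samd9l. The median change over the members was 0.12 and -0.08 in unstimulated and 0.27 and 0.21 in restimulated Th1 and Th17 cells, against 0.00, 0.05, 0.00 and -0.05 over all genes.

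Ifitm1 read 9.93, 9.25 and 9.44 in unstimulated Th1 cells on day 5 and 11.22 and 11.45 on day 15, a rise of 1.79 ± 0.26 (SE; adjusted p = 3.18e-05). Ifit3 read 8.02, 8.45 and 8.27 and then 9.44 and 9.42, a rise of 1.19 ± 0.29 (SE; adjusted p = 0.00566). Rsad2 read 7.39, 7.53 and 7.35 and then 8.62 and 8.44, a rise of 1.10 ± 0.27 (SE; adjusted p = 0.00498). In all 3 genes both day 15 values were above the 3 of day 5. The other 8 rose by less: Ifit1 (0.76), Mx1 (0.76), Mx2 (0.73), Oasl2 (0.72), Ifitm2 (0.71), Oasl1 (0.63), Samd9l (0.52) and Irf7 (0.50). Ddx58, Zbp1, Usp18 and Irf1 had changes of 0.23, -0.07, 0.08 and 0.13, and Psmb9 one of -0.38, none of which passed.

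Among unstimulated Th17 cells, Gbp3 read 9.40, 9.85 and 9.54 on day 5 and 8.85, 8.65, 8.30 and 8.84 on day 15, a change without overlap of -0.94 ± 0.21 (SE; adjusted p = 0.00452). Ifit3 and Rsad2, which rose in Th1 cells, had changes of 0.55 (adjusted p = 0.164) and 0.58 (adjusted p = 0.102) here, and Ifitm1 one of -0.50 (adjusted p = 0.162). The difference in change between the lineages passed the test for Ifitm1 and Ifitm2 alone of the 38 members, as given above. For Ifit3 that difference was -0.64 (95% confidence interval -1.43 to 0.15) and for Rsad2 -0.52 (-1.24 to 0.20).

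In restimulated Th17 cells, Ifit1 read 9.10, 8.76 and 9.54 on day 5 and 11.68, 11.10, 10.79 and 11.48 on day 15. The ranges were far apart, and the rise was 2.13 ± 0.21 (SE; adjusted p = 6.64e-07), or 4.38-fold. Ifit3 read 7.97, 7.43 and 8.27 and then 10.37, 9.47, 9.37 and 9.86, a rise of 1.88 ± 0.24 (SE; adjusted p = 2.13e-05), and Mx2 5.81, 5.43 and 6.06 and then 7.28, 7.43, 7.13 and 7.75, a rise of 1.62 ± 0.18 (SE; adjusted p = 2.6e-06). Samd9l read 9.18, 9.24 and 9.55 and then 10.57, 10.46, 10.71 and 10.71, and Rsad2 7.95, 7.38 and 7.75 and then 9.89, 8.98, 8.79 and 9.07. These rose by 1.29 ± 0.12 (SE; adjusted p = 3.32e-07) and 1.49 ± 0.22 (SE; adjusted p = 0.000119), and neither overlapped between the days. Usp18 rose by 1.02, and Gbp3 fell (-1.03). Restimulated Th1 cells showed Ifitm1 9.44, 9.43 and 9.45 on day 5 and 11.04 and 11.75 on day 15, a rise of 1.96 ± 0.26 (SE; adjusted p = 1.33e-05), and Ifit3 7.70, 7.73 and 7.49 and 9.91 and 8.77, a rise of 1.70 ± 0.29 (SE; adjusted p = 0.000209).

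Every day 15 sample also had more signal of the erythroid markers than any day 5 sample, 8.32 or more against 6.84 or less, so that day and erythroid transcripts cannot be told apart in these comparisons. With that mean as a covariate 0 members passed in unstimulated Th1 cells, 3 in restimulated Th1 cells and 3 in restimulated Th17 cells. In unstimulated Th1 cells the count was 3 without Th1 day 15 sample 2, 5 without Th1 day 15 sample 1, 6 without Th1 day 5 sample 1 and 7 without Th1 day 5 sample 3. In unstimulated Th17 cells it ran from 1 to 4, with 4 without Th17 day 5 sample 2 or day 15 sample 4 and 1 without day 5 sample 3 or day 15 sample 2. In Th1 cells the NK and dendritic marker means were also higher on day 15, the NK one at 6.99 to 7.17 against 5.88 to 6.18 without restimulation and 6.61 to 6.75 against 5.76 to 6.03 with it, and the dendritic one at 7.18 to 7.26 against 6.84 to 6.98 and 7.23 to 7.28 against 6.81 to 6.94. Their part in the rise of the members was not tested.

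**Figure D4:**
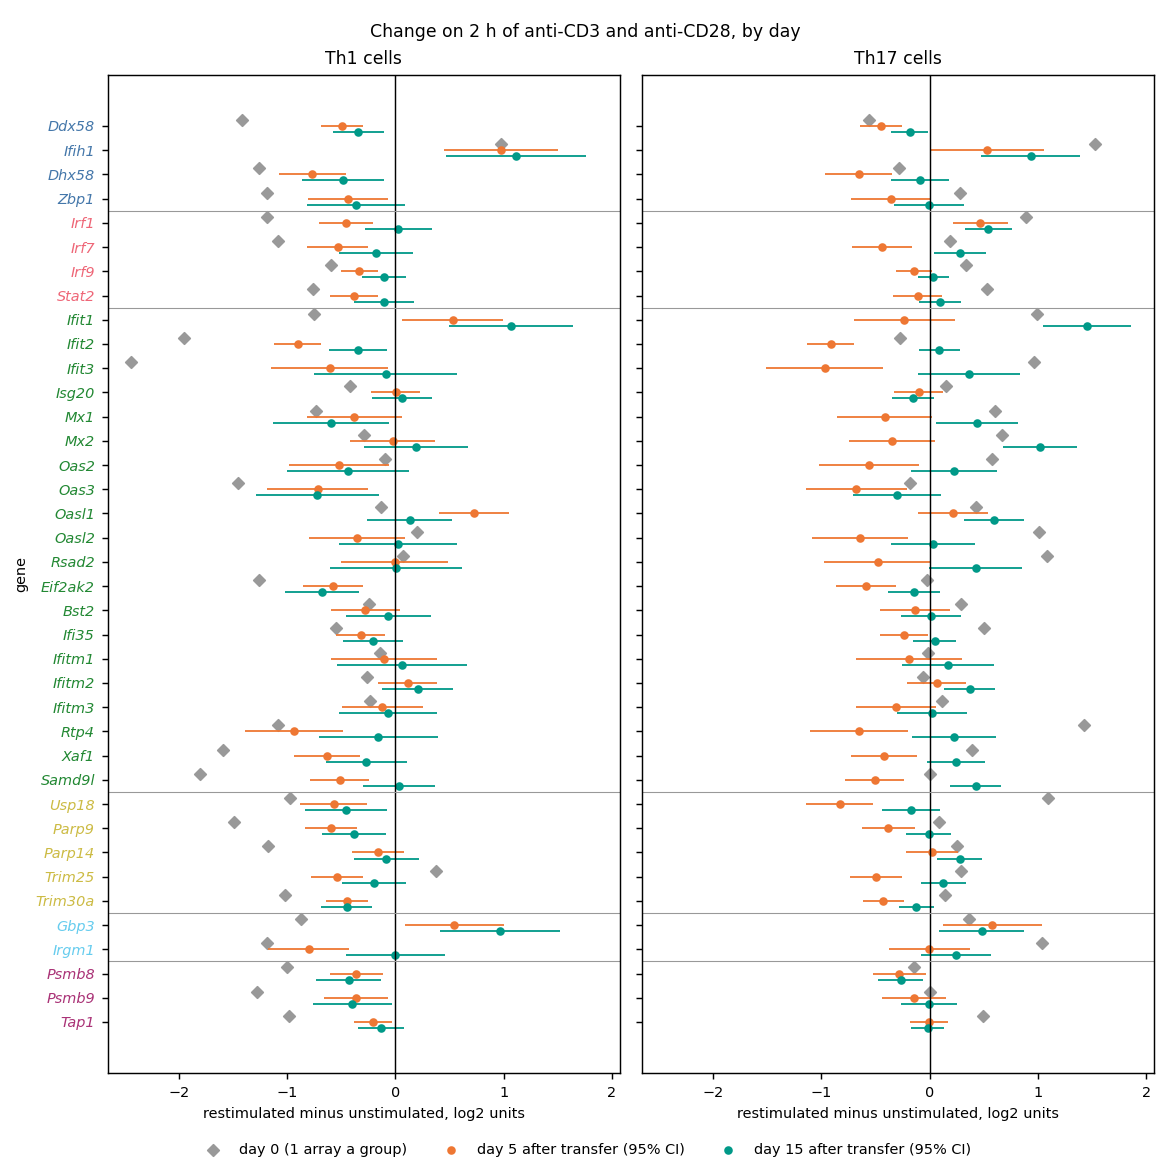
Restimulated minus unstimulated difference in log2 signal for each member in Th1 cells (left) and Th17 cells (right); grey diamonds are day 0 (1 array a group, no error), orange and green points are day 5 and day 15 after transfer with 95% confidence intervals from limma. On day 5 most points lie to the left of 0 in both panels (32 of 38 in each), while on day 15 in Th17 cells 26 of 38 lie to the right, with Ifit1 and Mx2 past 1.

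A short (2 h) T cell receptor stimulation lowered 18 of the genes in Th1 and 11 in Th17 cells on day 5. In Th1 cells 2 members rose beside the 18 that fell, while 4.07% of all genes rose and 8.96% fell. In Th17 cells 1 rose beside the 11 that fell, while 3.99% of all genes rose and 4.08% fell. The median change was -0.38 and -0.35 over the members and -0.01 and 0.03 over all genes. Of the genes that fell, 10 fell in both lineages, 55.6% of those in Th1 and 90.9% of those in Th17 cells: Ddx58, Dhx58, Eif2ak2, Ifit2, Irf7, Parp9, Samd9l, Trim25, Trim30a and Usp18. They include the sensor genes of RIG-I and LGP2, the kinase PKR (Eif2ak2), which stops translation, and the ubiquitin ligases Trim25 and Trim30a. No member called for restimulation on day 5 changed by 2-fold. The overlap of falls between the lineages over all genes was not computed.

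Ifit2 read 9.35, 9.38 and 9.39 in unstimulated and 8.37, 8.52 and 8.52 in restimulated Th1 samples, and 9.35, 9.22 and 9.34 and 8.25, 8.50 and 8.42 in Th17 samples. The states did not overlap in either lineage, and the changes were -0.90 ± 0.11 (SE; adjusted p = 7.43e-06) and -0.91 ± 0.11 (SE; adjusted p = 8.55e-06). Rtp4 read 8.70, 9.20 and 9.12 and 7.81, 8.34 and 8.06 in Th1 samples, a change of -0.94 ± 0.22 (SE; adjusted p = 0.00566), and Irgm1 11.16, 11.43 and 11.45 and 10.39, 10.73 and 10.51, a change of -0.80 ± 0.18 (SE; adjusted p = 0.00455). In Th17 samples Ifit3 read 9.16, 8.52 and 8.90 and 7.97, 7.43 and 8.27, a change of -0.97 ± 0.26 (SE; adjusted p = 0.023), and Usp18 10.59, 10.47 and 10.79 and 9.43, 9.85 and 10.08, a change of -0.83 ± 0.15 (SE; adjusted p = 0.0013). The states were apart in all of these.

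All 4 transcription factors fell in Th1 cells: Irf7 (-0.53), Irf1 (-0.46), Stat2 (-0.38) and Irf9 (-0.33). In Th17 cells Irf7 fell (-0.44) and Irf1 rose (0.47), with Irf1 at 11.07, 11.17 and 11.17 before and 11.58, 11.43 and 11.81 after. The members that rose in Th1 cells were Ifih1, from 10.27, 10.23 and 10.36 to 11.52, 10.77 and 11.50 (0.98, adjusted p = 0.0125), and Oasl1, an inhibitor of Irf7 translation, from 7.67, 7.73 and 7.76 to 8.74, 8.40 and 8.20 (0.73, adjusted p = 0.00301). Ifitm1, Ifitm2 and Ifitm3 had changes of -0.10, 0.11 and -0.12 in Th1 cells and did not pass. Gbp3 read higher after restimulation in both lineages (0.55 and 0.58) and did not pass in either.

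The counts of day 5 depended on single samples. In Th1 cells 12 or 13 calls were left without unstimulated sample 3, restimulated sample 1 or restimulated sample 3. In Th17 cells 4 were left without unstimulated sample 1, which has the high myeloid markers, 6 without its restimulated part and 2 without both parts. The falls of Ifit2 and Usp18 in Th17 cells kept their calls when any single sample was left out.

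On day 15 restimulation raised members in Th17 cells, while in Th1 cells the few calls went both ways. In Th17 cells 7 rose and none fell, against 6.49% and 11.1% of all genes, and in Th1 cells 3 rose and 2 fell, against 2.65% and 4.63%. Ifit1 read 10.01, 9.72, 9.44 and 10.06 in unstimulated and 11.68, 11.10, 10.79 and 11.48 in restimulated Th17 samples. Mx2 read 6.24, 6.34, 6.14 and 6.76 and 7.28, 7.43, 7.13 and 7.75, and Ifih1 9.92, 9.75, 9.69 and 10.08 and 11.44, 10.55, 10.64 and 10.55. Every restimulated value was above every unstimulated value, and the rises were 1.45 ± 0.20 (SE; adjusted p = 1.4e-05), 1.02 ± 0.17 (SE; adjusted p = 0.00012) and 0.93 ± 0.22 (SE; adjusted p = 0.0045). The other 4 were Oasl1 (0.59), Irf1 (0.54), Samd9l (0.43) and Ifitm2 (0.37), of which Ifitm2 overlapped between the states. The count was 6 to 8 with any single sample left out.

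In Th1 cells on day 15, Ifit1 went from 9.59 and 9.33 to 10.71 and 10.33 (1.06, adjusted p = 0.0216), Ifih1 from 10.25 and 10.04 to 11.93 and 10.59 (1.12, adjusted p = 0.0308) and Gbp3 from 9.74 and 9.85 to 11.23 and 10.30 (0.97, adjusted p = 0.0299). Eif2ak2 (-0.68) and Trim30a (-0.45) fell. With 2 samples a state the count was 0 without either unstimulated sample, 1 without restimulated sample 1 and 13 without restimulated sample 2, of which 3 rose and 10 fell, and 0 in a fit limited to these groups. Of the 38 members 26 had a change below 0, with a median of -0.12 against -0.02 over all genes. The NK marker mean was 6.99 to 7.17 in unstimulated and 6.61 to 6.75 in restimulated Th1 samples, and its part was not tested. Usp18, Irf7 and Ifit3 had changes of -0.46, -0.18 and -0.09 and did not pass.

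The response of Th17 cells to restimulation changed between the days, in a comparison that was added after the values had been seen. The difference between the day 15 and day 5 responses was above 0 for 35 of 38 members, with a median of 0.37 against -0.09 over all genes. It passed for 6 members, all higher on day 15, against 0.441% of all genes, and for none in the other direction (0.732%). They were Ifit1 (1.69 ± 0.30 SE, adjusted p = 0.00421), Mx2 (1.37 ± 0.25 SE, adjusted p = 0.00603), Ifit2 (1.00 ± 0.14 SE, adjusted p = 0.000496) and Samd9l (0.93 ± 0.17 SE, adjusted p = 0.00625), with Irf7 (0.72, adjusted p = 0.0474) and Trim25 (0.62, adjusted p = 0.0473). Ifit2 fell on day 5 and on day 15 read 9.57, 9.38, 9.22 and 9.43 without and 9.67, 9.25, 9.46 and 9.57 with restimulation, ranges that overlap.

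In Th1 cells no member passed the same test by limma, against 0.0251% of all genes. At an unadjusted p under 0.05 there were 6 members, and the share of all genes at that threshold is not given here. The difference in Th1 cells was 0.56 for Ifit2 (95% confidence interval 0.21 to 0.90) and 0.54 for Ifit1 (-0.20 to 1.27). Since the parts of a sample were split from the same cells, the fit with the replicate number as a block bears on this comparison, and it gave 10 Th17 calls. Without both parts of day 5 Th17 sample 1, and without a block, there were 3 calls, and a covariate for the erythroid markers gave 12. The shares of all genes called in these fits are not given here. The calls of Ifit1, Ifit2 and Mx2 held in every alternative tried. Beside the rise, the erythroid marker mean was 8.32 to 8.48 in restimulated and 8.56 to 9.52 in unstimulated day 15 Th17 samples.

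The rest of the interferon pathway was read from lists of 12 measured ligands, 9 receptors and kinases, 6 inhibitors, 12 adaptors of sensing, 38 other type I-stimulated genes and 19 other interferon-γ-stimulated genes. Between the polarizations no ligand passed the test on either day, with or without restimulation. Of the receptors and kinases 2, 2, 1 and 2 were higher in Th17 cells (day 5, day 5 restimulated, day 15 and day 15 restimulated) and 0, 0, 1 and 2 were lower. Over all genes 2.31%, 2.95%, 1.88% and 3.45% were higher in these comparisons and 1.32%, 1.02%, 2.28% and 2.98% lower. Of the inhibitors 1, 1, 1 and 0 were higher and none was lower, and of the adaptors 1 was higher and 1 lower in restimulated day 5 cells alone of the 4 comparisons. Of the receptor genes, Ifngr2, the signalling chain of the interferon-γ receptor, was higher in Th17 cells throughout. It read 11.45 in the Th17 and 9.34 in the Th1 culture, 9.86, 9.41 and 10.16 against 7.19, 7.14 and 7.21 on day 5, and 10.21, 10.29, 9.98 and 10.20 against 7.68 and 8.07 on day 15. The differences after transfer were 2.63 ± 0.23 (SE; adjusted p = 3.63e-08) and 2.29 ± 0.24 (SE; adjusted p = 9e-07), and 2.96 (adjusted p = 4.46e-09) and 1.92 (adjusted p = 1.26e-05) in restimulated cells. Day 5 Th17 sample 1 had the highest myeloid marker mean and an Ifngr2 value between those of the other 2. The part of the myeloid markers in the Ifngr2 difference was not tested. Ifngr1, the partner of Ifngr2, differed by 0.24 on day 5 and 0.16 on day 15 and did not pass.

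For the type I receptor, Ifnar2 was higher in Th17 cells on day 5 (0.46, adjusted p = 0.0397), in restimulated cells on day 5 (0.64, adjusted p = 0.00227) and in restimulated cells on day 15 (0.44, adjusted p = 0.0477), and differed by 0.04 in unstimulated cells on day 15. Ifnar1 differed by 0.08 and -0.04 in unstimulated cells and did not pass. The kinase Tyk2 was lower in Th17 cells on day 15 (-0.62, adjusted p = 0.00338) and when restimulated (-0.48, adjusted p = 0.017). Of the inhibitors, Socs3 was higher in unstimulated Th17 cells on day 5 (0.75, adjusted p = 0.0167) and day 15 (0.82, adjusted p = 0.0127), and Socs1, which blocks Jak kinases, in restimulated cells on day 5 (0.85, adjusted p = 0.00193). Socs1 differed by 0.26 without restimulation.

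Of the ligands, Ifng, which encodes interferon-γ, read 12.81 in the Th1 and 10.45 in the Th17 culture. On day 5 it read 12.25, 12.20 and 12.35 in Th1 and 10.88, 12.29 and 12.09 in Th17 samples, and on day 15 12.18 and 11.91 and 11.46, 11.06, 10.73 and 11.23, and the differences of -0.52 (adjusted p = 0.538) and -0.93 (adjusted p = 0.123) did not pass. Th17 sample 1 was the lowest on day 5, and on day 15 all 4 Th17 values lay below both Th1 values. Restimulation raised it by 1.09 and 1.26 on day 5 and by 1.30 and 1.20 on day 15 in Th1 and Th17 cells, all 4 with a call. Ifnb1, the interferon-β gene, read 5.20 in the Th17 culture, between 5.08 and 5.92 on all arrays after transfer, and passed in no comparison.

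Ifna4, an interferon-α gene, read 4.78, 4.94, 5.20 and 4.70 in unstimulated and 8.08, 6.04, 6.78 and 6.73 in restimulated day 15 Th17 samples. Every restimulated value was above every unstimulated value, a rise of 2.00 ± 0.28 (SE; adjusted p = 1.96e-05). In Th1 cells of day 15 it read 4.70 and 4.96 and 6.50 and 5.32 (1.08, adjusted p = 0.1). On day 5 the Th17 change was 0.26 (adjusted p = 0.717), and the day 15 response exceeded that of day 5 by 1.75 (adjusted p = 0.0414). Interferon-α genes are near-identical copies of each other, so the probe set may also read others of the family.

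The other type I-stimulated genes fell with the members on day 5: 18 of 38 fell and none rose on restimulation of Th1 cells, and 16 fell and none rose in Th17 cells, against 8.96% and 4.08% of all genes that fell and 4.07% and 3.99% that rose. Among the largest falls were Cmpk2, a nucleotide kinase (-1.11 and -1.17), Slfn5 (-1.08 and -1.34) and Parp12 (-0.91 and -0.64). On day 15 restimulation lowered 8 and raised none in Th1 cells and lowered 4 and raised 1 in Th17 cells, where 4.63% and 11.1% of all genes fell and 2.65% and 6.49% rose. Between the days 7 rose and 1 fell in unstimulated Th1 cells and 12 rose and 1 fell in restimulated Th1 cells, with Ddx60, a cofactor of RIG-I, at 1.59 (adjusted p = 1.46e-06) and 1.37 (adjusted p = 1.21e-05). In Th17 cells 1 rose and 2 fell without restimulation, and 16 rose and none fell with it. Over all genes 7.33%, 7.07%, 4.37% and 5.05% rose between the days in these 4 comparisons and 8.72%, 8.64%, 5.28% and 8.42% fell. Slfn5 (1.18) and Ddx60 (1.00) were also higher in unstimulated Th17 than Th1 cells on day 5, 2 of 4 such genes on the list.

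Of the 19 other interferon-γ-stimulated genes none was higher in Th17 cells in any of the 4 comparisons, and 2, 0, 4 and 2 were lower on day 5, on day 5 restimulated, on day 15 and on day 15 restimulated. As shares these are 10.5%, 0%, 21.1% and 10.5%, against 1.32%, 1.02%, 2.28% and 2.98% of all genes. Cxcl10, a chemokine that draws Cxcr3-bearing T cells, read 7.75, 8.07 and 8.18 in Th17 and 9.14, 9.92 and 9.66 in Th1 samples of day 5, apart, a difference of -1.58 ± 0.29 (SE; adjusted p = 0.0012), and differed by -1.18 (adjusted p = 0.0248) on day 15. Restimulation raised it in Th17 cells by 2.33 (adjusted p = 1.84e-05) on day 5 and 2.42 (adjusted p = 4.15e-07) on day 15. Cd274, the ligand of PD-1, rose on restimulation in all 4 tests, by 1.46 and 1.83 on day 5 and by 0.88 and 1.44 on day 15 in Th1 and Th17 cells.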

How the data were processed

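The 28 arrays comprise 24 from cells recovered after transfer, in 8 groups, and 4 from the cultures. The deposited values are log2 signals that the authors made with RMA in Affymetrix Expression Console, per the submitters' processing notes, which name no version. RMA sets arrays to a common distribution, so a change of all genes in 1 direction would not be seen, and array medians lay between 6.77 and 7.09. Of 35556 probe sets 21789 name 1 gene, 1621 several and 12146 none, and no gene was named from a probe set of several. Probe sets of 1 gene gave 19938 genes.

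The 24 arrays were fitted with limma 3.58.1 in R 4.3.3 (lmFit and eBayes, 8 groups, 16 residual degrees of freedom, no filter on low values). P-values were adjusted over all 19938 genes by the Benjamini-Hochberg method, and a call is an adjusted p under 0.05. There were 12 pairwise comparisons, 4 planned interactions and 2 interactions (restimulation by day) added after the data had been seen. The script was tested on simulated data. The 8 day 0 comparisons have no test. Arrays carry no read depth, and their number limits the precision.

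The members, lists and tests were chosen with earlier results of these data known. Named are up to 8 called members each way per comparison (10 at day 0) and a panel; further members named, such as Oas3, Ifih1 or Gbp3 where they did not pass, were picked after their values were seen.

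The labels say that each sample was divided before restimulation, so replicate numbers pair the parts of a sample. Correlations of same-numbered deviations from group means over the 9969 genes above the median level were 0.159 to 0.214 in Th1 and 0.39 to 0.481 in Th17 cells on day 5, 0.124 in Th1 and -0.158 to 0.212 in Th17 cells on day 15. Across polarizations they were 0.209 to 0.483 in restimulated day 5 samples, where the number was taken to pair samples, and -0.126 to 0.068 in unstimulated ones. On day 15 they were 0.298 (sample 1) and -0.125 (sample 2) without restimulation and 0.655 (sample 1) and 0.073 (sample 2) with it. Alternatives were a fit of the compared groups alone, array medians as the centre, cyclic loess, averaged probe sets of a gene, only genes above the median level, array weights, a replicate block and leaving out each replicate, and, added later, covariates for myeloid or erythroid markers and leaving out day 5 Th17 sample 1.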

Additional observations from a re-analysis of the deposited data

Results flagged for a closer look

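In 4 of 76 sets of 4 arrays of 1 gene (the 2 day 15 Th17 groups), 1 sample lay far from the other 3, where chance gives about 1 in 20. Rtp4 was 9.13 in unstimulated day 15 Th17 sample 3 and 9.81 to 9.94 in the others. In restimulated day 15 Th17 cells, Irf7 was 11.27 in sample 3 and 11.56 to 11.59 in the others, Ifih1 was 11.44 in sample 1 and 10.55 to 10.64 in the others, and Bst2 was 9.68 in sample 4 and 9.17 to 9.24 in the others.

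For 9 changes the test of a difference between conditions passed by limma. The Th17 minus Th1 difference moved between day 5 and day 15 by -2.29 (Ifitm1) and -0.90 (Ifitm2) without restimulation and by -2.09 (Ifitm1) with it. The restimulation change of Th17 cells was higher on day 15 than on day 5 by 1.69 (Ifit1), 1.37 (Mx2), 1.00 (Ifit2), 0.93 (Samd9l), 0.72 (Irf7) and 0.62 (Trim25).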

How the results depend on the processing

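Of 122 member calls, 31 held in every alternative run for them. Of their 1889 alternative values 1549 kept direction and call, 331 kept the direction and lost the call, and 9 reversed. All 9 reversals came in the Th1 change from day 5 to day 15 with the erythroid marker covariate, which is itself separated by day. The unstimulated values were then Ifit1 -0.64, Ifit3 -0.73, Mx1 -0.49, Oasl2 -0.30 and Rsad2 -0.66, and the restimulated ones Ifit1 -0.044, Ifit2 -0.20, Ifit3 -0.14 and Rsad2 -0.57. The day 0 counts stayed within 1.5 times under all alternatives run for them.

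The counts of called members that moved by over 1.5 times were as follows, and the cause was not tested. They are counts of members alone, and the share of all genes called in each alternative is not given here. Fitting only the compared groups gave 9 between polarizations on day 5 unstimulated and 3 on day 15 restimulated, 0 on restimulation of day 15 Th1 cells and 1 between days in unstimulated Th17 cells. Only genes above the median level gave 3 for polarization by day restimulated. Cyclic loess gave 4 between days in unstimulated Th17 cells, 4 for polarization by day restimulated and 1 for polarization by restimulation on day 5. Array medians gave 4 and 2 for the first 2 of these. Array weights gave 12 (day 5 unstimulated), 8 (day 15 unstimulated) and 3 (day 15 restimulated) between polarizations, 0 on restimulation of day 15 Th1 cells, 10 between days in unstimulated Th17 cells and 1 for polarization by restimulation on day 5. The replicate block gave 13 between polarizations on day 15 restimulated and 3 for polarization by day restimulated. There the labels give samples only a number in common, and the correlations on day 15 restimulated were 0.655 and 0.073. The block gave 1 for polarization by restimulation on day 5 and 10 for restimulation by day in Th17 cells. It moved no other count by over 1.5 times.

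The myeloid marker covariate gave 1, 2 and 5 between polarizations (day 5 unstimulated, day 5 restimulated, day 15 restimulated). The erythroid one gave 3 and 5 between polarizations on day 15 (unstimulated, restimulated), 0, 3 and 3 between days (unstimulated Th1, restimulated Th1, restimulated Th17), 2 for polarization by day restimulated and 12 for restimulation by day in Th17 cells. Without both parts of day 5 Th17 sample 1 there were 2 calls on restimulation of day 5 Th17 cells and 3 for restimulation by day.

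With 1 replicate left out the counts between polarizations ran from 2 to 8 and from 3 to 8 on day 5 (unstimulated, restimulated) and from 0 to 5 and from 2 to 13 on day 15. On restimulation they ran from 12 to 22 (Th1) and 4 to 14 (Th17) on day 5, and from 0 to 13 (Th1) and 6 to 8 (Th17) on day 15. Between days they ran from 3 to 8 (Th1) and 1 to 4 (Th17) unstimulated, and from 13 to 16 (Th1) and 13 to 15 (Th17) restimulated. Polarization by day ran from 1 to 2 unstimulated and 1 to 4 restimulated, polarization by restimulation from 0 to 1 on day 5 and 0 to 3 on day 15, and restimulation by day was 0 in Th1 cells and 4 to 7 in Th17 cells. Where a day 15 Th1 group is left with 1 sample, that sample is assumed to vary like the other groups.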
